A study of Mus musculus with 18 samples.

Results

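The cytosolic ribosomal protein genes encode the proteins of the 40S and 60S subunits of the ribosome outside mitochondria. They were taken as the protein-coding genes of the GENCODE M21 annotation whose symbols name a small-subunit (Rps), large-subunit (Rpl) or stalk (Rplp) protein, together with Rpsa and Rps4x, and 83 of the 54281 genes in the count table met this rule. The rule itself uses no measured value, though it was set with earlier results of these data known. The data were RNA-seq libraries of total RNA from R1 mouse embryonic stem cells (mESC_WT, wild-type) and from the cerebral cortex of male C57BL/6J mice, either wild-type (WT) or labelled as Mcph1 knockout (Mcph1KO). Cortex was taken at an embryonic stage (E17.5), a postnatal stage (P4) and at the adult stages named A6w and A18w, with 2 libraries in each of the 9 groups and 18 in all. MCPH1, or microcephalin, is a chromosome condensation and DNA damage response protein whose loss causes small brain size in humans, and the series concerned cortical development in a mouse model of that disease. The kind of Mcph1 allele and the number of animals behind a library were not given in the sources used here, so p-values measure the spread between these libraries, which may be technical. Mcph1 itself was checked first: its CPM (counts scaled to a common library size) in the libraries labelled Mcph1KO lay between 11.7 and 16.6, and those in WT cortex between 8.36 and 12.5, so the counts did not show a loss of the transcript, and a gene count does not test a deletion that leaves most of the transcript. Genotype directions below are therefore those of the labels.

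A ribosome is built from a small subunit that reads the messenger RNA, a large subunit that joins amino acids, and a lateral stalk of acidic proteins on the large subunit that recruits elongation factors. Its protein genes are among the most highly transcribed genes of growing cells. Their mRNAs start with a short run of pyrimidines (the 5' terminal oligopyrimidine or TOP motif), through which mTOR signalling controls their translation. Most members also have many processed pseudogenes, intronless copies made by reverse transcription, and some have a second functional gene copy (a paralog) with its own tissue pattern.

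Near-identical copies bear on many values below, because a read that matches a gene and its copy equally well must be divided between them. Coding stretches show how close such copies are. The first 60 coding bases of Rpl10 (chromosome X) and of its paralog Rpl10l (chromosome 12), and of Rpl39 (chromosome X) and Rpl39l (chromosome 16), are given first, with each base in which the paralog differs in capitals. Over the whole coding stretch Rpl10l differed from Rpl10 at 98 of 642 bases and Rpl39l from Rpl39 at 23 of 153.
Rpl10: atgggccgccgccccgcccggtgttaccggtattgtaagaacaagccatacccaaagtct
Rpl10l: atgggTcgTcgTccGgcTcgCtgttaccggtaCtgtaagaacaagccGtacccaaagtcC
Rpl39: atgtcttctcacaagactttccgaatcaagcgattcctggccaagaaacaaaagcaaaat
Rpl39l: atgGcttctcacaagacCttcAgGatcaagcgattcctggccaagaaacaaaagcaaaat
The processed pseudogene Rps3a2 (chromosome 14, 88123017 to 88123808, minus strand, GRCm38) differed from Rps3a1 at only 4 of 792 coding bases, 2 of which fall in coding bases 609 to 668, given next with the same use of capitals. All 6 stretches were read from GENCODE M21 transcripts.
Rps3a1: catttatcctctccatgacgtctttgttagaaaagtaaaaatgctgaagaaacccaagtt
Rps3a2: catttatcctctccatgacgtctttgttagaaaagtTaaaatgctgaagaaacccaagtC
Counted in stretches of 31 bases, the share of a member's transcript that also occurs in another annotated gene ran from 0% in Rpl3l to 99%. It was above 50% in 60 of the 83 members. The 23 members at or below 50%, which include Rps3, Rps20, Rpl8 and Rpl4, are given separately where a count rests on the whole list. The share is of the whole transcript, untranslated ends included. Rps20, at 10.8%, has 398 shared stretches and 357 coding bases, so a low share need not mean an unshared coding part.

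Promoter sequences of 300 bases (250 before and 50 after the RefSeq start, GRCm38.p6) were found for 63 of the 83 members, with 75 entries in all. A run of at least 8 C or T bases on the coding strand within 30 bases of the start stood in 37 of the 75 entries (49.3%) and in 22.9% of all 32851 promoters in the RefSeq table. The letters CCGGAAG on either strand stood in 36% of member entries and in 8.86% of all promoters, and the letters TATAA on either strand in 24% and 24.9%. Windows from 40 bases before to 20 bases after the start are shown for Rpl4, the gene of a large-subunit protein at the peptide exit tunnel (chr9:64173347-64173406, plus strand), Rpl38 (chr11:114668540-114668599, plus strand), and the paralogs Rpl22l1 (chr3:28805468-28805527, plus strand) and Rpl39l (chr16:10170188-10170247, plus strand), since these genes differed widely in the stage and stem cell comparisons. Capitals mark the longest run of C and T near the start.
Rpl4: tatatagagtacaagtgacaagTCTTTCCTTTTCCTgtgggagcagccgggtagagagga
Rpl38: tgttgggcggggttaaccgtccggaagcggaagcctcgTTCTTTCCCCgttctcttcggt
Rpl22l1: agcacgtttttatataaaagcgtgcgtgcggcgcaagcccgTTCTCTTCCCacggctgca
Rpl39l: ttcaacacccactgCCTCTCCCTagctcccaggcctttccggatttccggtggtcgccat

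Ribosomal protein mRNA took its largest share of counts in stem cells, and a lower share in adult than in younger cortex. The 83 genes together held 7.01% and 7.64% of all counts in the 2 stem cell libraries, against 2.91% ± 0.41 (SD, n = 4) at E17.5, 2.02% ± 0.35 (n = 4) at P4, 1.06% ± 0.16 (n = 4) at A6w and 1.21% ± 0.18 (n = 4) at A18w. At E17.5 the libraries held 2.38% to 3.27%, at P4 1.64% to 2.43%, at A6w 0.952% to 1.29% and at A18w 0.986% to 1.42%. The stem cell libraries stood apart from all cortex libraries and the adult libraries were all below the E17.5 and P4 libraries, while E17.5 and P4 overlapped by 1 library on each side. Library totals lay between 23531045 and 32041849 counts. Cortical projection neuron markers summed to 1451 to 3166 CPM in every cortex library and 3.90 to 16.4 CPM in stem cells, and stem cell markers to 6271 to 6861 CPM in mESC_WT and 0.853 to 3.13 CPM in cortex. Choroid plexus markers (9 genes) summed to 6.05 to 1114 CPM over the cortex libraries and striatal markers (9 genes) to 108 to 2338 CPM. Genes of the mitochondrial genome held 1.76% to 9.73% of counts over the cortex libraries. The part of these in the results was not tested.

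**Figure D1:**
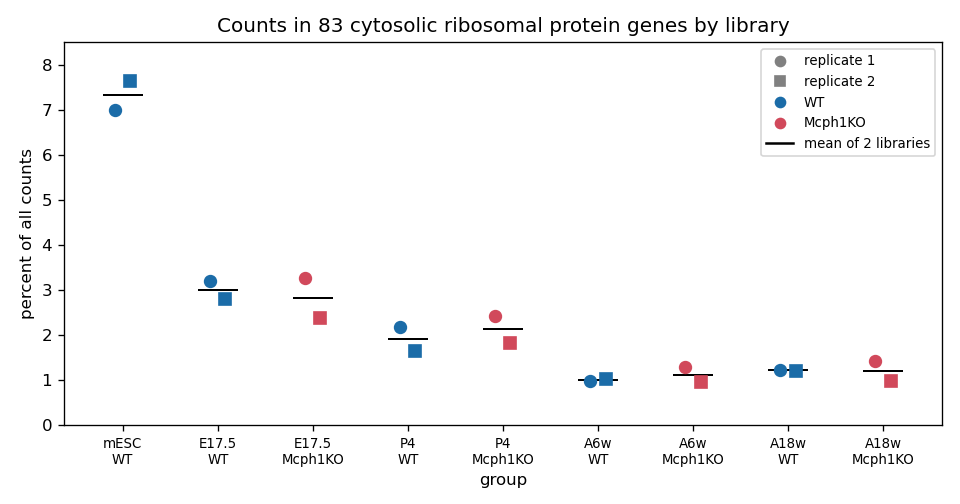
Percent of all counts in the 83 cytosolic ribosomal protein genes in each of the 18 libraries, by group, with replicate 1 as circles, replicate 2 as squares and the mean of each group as a bar. The stem cell libraries lie at 7.01% and 7.64%, and the share is lower at each later cortical stage up to A6w.

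Between E17.5 and P4 the genes mostly fell, and the fall was uneven across members. With genotypes averaged, 45 of the 80 members that passed the filter on low counts were lower at P4 and 1 was higher by edgeR's quasi-likelihood test (adjusted p under 0.05 over all genes), where 17.9% of all 19199 genes tested were lower and 18.9% higher. The median log2 difference was -0.53 over members and 0.03 over all genes tested. Rpl27, a large-subunit protein, had 255.6, 79.8, 258 and 66.1 CPM in WT replicates 1 and 2 and Mcph1KO replicates 1 and 2 at E17.5, and 64.9, 45.9, 76.7 and 64.1 CPM at P4 in the same order. Its log2 difference was -1.40 (SE 0.41, adjusted p = 0.0179), the most negative of the 80 as deposited, and -0.77 (adjusted p = 0.00231) with its near copies added. The E17.5 replicates numbered 1 were several times above those numbered 2 in both genotypes, and the lower pair reached into the range of P4.

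The same split at E17.5 ran through the other members with the most negative values. Rps23, which sits at the decoding centre of the small subunit, had 192, 96.4, 201 and 68.2 CPM at E17.5 and 57.9, 49.98, 63.6 and 58.4 CPM at P4, with a log2 difference of -1.28 (SE 0.32, adjusted p = 0.00834). Rpl13 had 637, 253, 674 and 201 CPM at E17.5 and 202, 125, 226 and 189.8 CPM at P4 (-1.26, SE 0.36, adjusted p = 0.0164). The groups of Rps23 did not overlap and those of Rpl13 did, and in both genes most of the distance lay in the 2 E17.5 libraries numbered 1. Rpl36a and Rpl36, 2 further large-subunit proteins, differed by -1.21 (SE 0.31, adjusted p = 0.0096) and -1.17 (SE 0.29, adjusted p = 0.00739). With near copies added, Rps23 was at -0.73 (adjusted p = 0.00736) and Rpl13 at -0.57 (adjusted p = 0.0105), the call for Rpl36a was lost (-0.78, adjusted p = 0.0505), and Rpl36 stayed at -1.17 (adjusted p = 0.00705). The order and size of the most negative members therefore differed with and without copies. Without both E17.5 libraries numbered 1, only 2 members were lower at P4 and none was higher, and without any single library the count of lower members ran from 12 to 56. It was 12 without E17.5_Mcph1KO replicate 1, 18 without E17.5_WT replicate 1, 19 without P4_Mcph1KO replicate 2 and 22 without P4_WT replicate 2. Fewer libraries bear on the calls of all genes, and the shares over all genes in these fits are not given here. Whether the loss of calls was particular to the members was not tested. Within WT alone 23 members were lower and 0 higher (8.59% and 9.65% of all genes tested), and within Mcph1KO alone 2 lower and 1 higher (8.55% and 10.2%), with medians of -0.69 and -0.40.

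Cycling-cell markers moved in the same direction as these values. Their 10 genes, each detected at every cortical stage, summed to 944 and 1072 CPM in the E17.5 libraries numbered 1, to 548 and 728 CPM in those numbered 2, to 171 to 301 CPM at P4 and to 8.16 to 17.45 CPM in the adult libraries. In bulk tissue, fewer cells of a type and less RNA per cell cannot be told apart, and the part of cycling cells in the fall was not tested.

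A few members did not follow. Rpl5, which carries 5S ribosomal RNA into the large subunit with Rpl11, was the only member called higher at P4: it had 62.4, 57.4, 60.7 and 53.5 CPM at E17.5 and 74.8, 62.2, 88.5 and 75.1 CPM at P4, a log2 difference of 0.36 (SE 0.12, adjusted p = 0.0332). The transcribed processed pseudogene Gm15500 shares 49% of the 31-base stretches of Rpl5 and held 529.9 and 434 CPM in the 2 E17.5_WT libraries. With near copies added to Rpl5 its difference was -0.57 (adjusted p = 0.00669), a fall. The call was also lost without any 1 of 6 libraries: either WT or Mcph1KO replicate at E17.5, P4_WT replicate 1 or P4_Mcph1KO replicate 1. Rpsa, the laminin receptor homologue of the small subunit, had 953, 947, 959 and 863 CPM at E17.5 and 878, 917, 1044 and 899 CPM at P4 and differed by 0.01 (SE 0.12, adjusted p = 0.984, 95% interval -0.25 to 0.26). Rplp1 differed by 0.07 (SE 0.14, adjusted p = 0.714), Rpl39 by 0.07 (SE 0.35, adjusted p = 0.894) and Rpl22l1 by -0.01 (SE 0.16, adjusted p = 0.988).

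From P4 to A6w the fall continued, and here it did not rest on 1 library. At A6w, 51 of 80 members were lower and 0 higher (27.8% and 27.3% of all genes tested), with a median log2 difference of -0.62 against -0.06 over all genes tested. The count of lower members ran from 40 to 53 when each library was left out in turn. Rplp0, the protein that anchors the stalk to the large subunit, had 1212, 1011, 1202 and 864 CPM at E17.5, 772, 587, 929.8 and 719 CPM at P4, 198, 186, 225 and 170.2 CPM at A6w and 211, 199.9, 231 and 166 CPM at A18w. All 8 adult libraries lay below all 8 younger ones, and the A6w minus P4 difference was -1.94 (SE 0.17, adjusted p = 6.87e-07), the most negative of the 80. Rpsa, not called between E17.5 and P4, had 319.6, 327, 406 and 303 CPM at A6w, a difference of -1.46 (SE 0.12, adjusted p = 4.41e-07). Rpl5 and the X-linked Rps4x differed by -1.35 (SE 0.12, adjusted p = 1.1e-06) and -1.31 (SE 0.15, adjusted p = 1.15e-05). With near copies added Rpl5 was at -0.87 (adjusted p = 0.000151). In each of these genes the 4 A6w libraries were below the 4 P4 libraries.

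Markers of other cell types differed at the same steps. Oligodendrocyte markers (9 genes) summed to 102 to 153 CPM at P4, with Opalin at 0 in every P4 library, and 4448 to 8187 CPM at A6w. Over the same stages microglia markers (9 genes) summed to 112 to 183 and 318 to 474 CPM, and meningeal markers (8 genes) to 485 to 915 and 56.9 to 208 CPM. Blood cell markers (7 genes) summed to 1169 to 2077 CPM at E17.5, 62.4 to 308 CPM at P4 and 177 to 446 CPM at A6w. The stages did not overlap in oligodendrocyte, microglia and meningeal sums between P4 and A6w, nor in blood cell sums between E17.5 and P4. Their part in the lower member levels was not tested.

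None of the members with the most positive values at this step was called, and 4 of the 5 have transcripts of at most 500 bases. Rps21 had 125, 24.6, 124 and 49.8 CPM at P4 and 111, 99, 151 and 86.6 CPM at A6w, with P4_WT replicate 2 lowest, and its difference was 0.47 (SE 0.47, adjusted p = 0.42). Rpl37 differed by 0.54 (SE 0.34, adjusted p = 0.202), Rps29 by 0.37 (SE 0.53, adjusted p = 0.575), Rpl35a by 0.28 (SE 0.32, adjusted p = 0.47) and Rps27 by 0.22 (SE 0.37, adjusted p = 0.634). The 19 members with transcripts of at most 500 bases had a median difference of -0.30, and the 18 of at least 1000 bases one of -0.74. Other protein-coding genes of those lengths had medians of 0.36 (126 genes) and -0.03 (14476 genes).

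By role, the decline at this step was called in 24 of 32 small-subunit members (median -0.75), 25 of 45 large-subunit members (median -0.55) and 2 of 3 stalk members. From E17.5 to P4 the counts were 15 of 32, 28 of 45 and 2 of 3, with medians of -0.53, -0.56 and -0.52. Between A6w and A18w edgeR called no member (0.104% of all genes were higher and 0.0313% lower, 0.135% together). An unadjusted p under 0.05 in that test was found in 4 of 80 members and in 1706 of all 19199 genes tested. DESeq2 called 1 member, and over all 19199 genes tested it called 136 higher and 99 lower. The median was 0.19, 76 of 80 members had higher mean CPM at A18w, and 48.7% of all genes tested had a positive difference. Rps3a1 had the most positive value, 0.55 (SE 0.15, adjusted p = 0.261), with 222, 224, 163 and 241 CPM at A6w and 319, 323, 333 and 268 CPM at A18w, so that the groups did not overlap. The most negative value was that of Rpl10, -0.07 (SE 0.31, adjusted p = 0.984). The median was 0.03 without A18w_Mcph1KO replicate 1, 0.08 without A6w_Mcph1KO replicate 2, 0.30 without A6w_Mcph1KO replicate 1 and 0.32 without A18w_Mcph1KO replicate 2. Striatal markers differed at the same time, with sums of 212 to 355 CPM at A6w and 532 to 2338 CPM at A18w; their part was not tested.

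**Figure D2:**
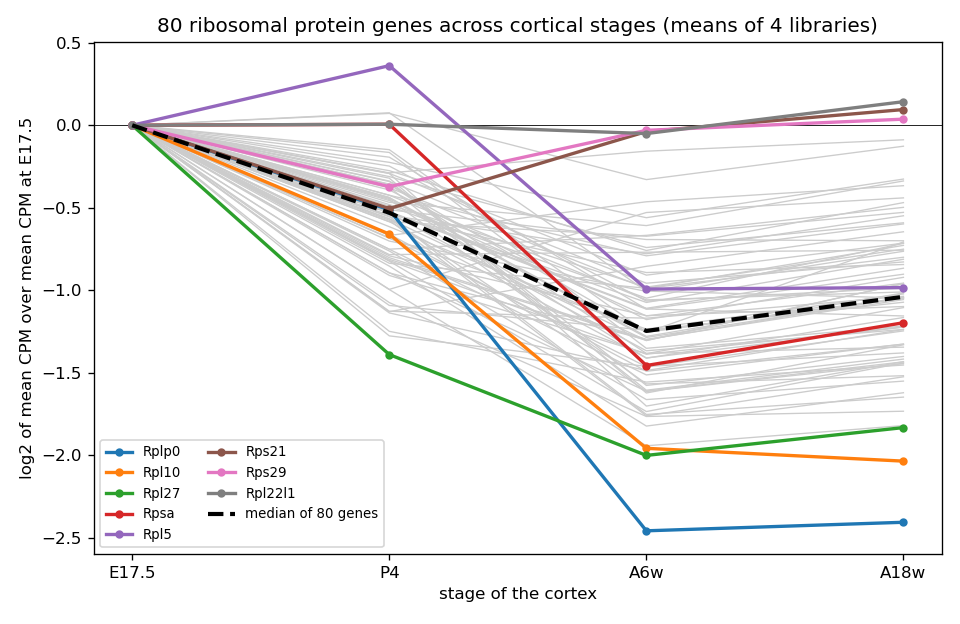
Log2 of each member's mean CPM over 4 libraries, relative to its mean at E17.5 (vertical axis), at the 4 cortical stages (horizontal axis), for the 80 members that passed the filter in grey, 8 named members in colour and the median dashed. Most lines fall to A6w and stay low at A18w, Rplp0 reaches the lowest level, and Rpl22l1, Rps21 and Rps29 end near 0.

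Across the whole course, A18w against E17.5, 69 of 80 members were lower and 0 higher (33.4% and 32% of all genes tested), with a median log2 difference of -1.04, or 2.06-fold lower, against -0.04 over all genes tested. Mean CPM was lower at P4 than at E17.5 and lower again at A6w in 67 of the 80 members. Of all genes tested, 51.8% had a positive difference from E17.5 to P4 and 47.6% from P4 to A6w. The share of all genes that fell at both steps is not given here. The 5 members with the most negative values were Rplp0 at -2.41 (SE 0.17, adjusted p = 5.15e-08), Rpl10 at -2.04 (SE 0.31, adjusted p = 7.38e-05), Rpl27 at -1.84 (SE 0.42, adjusted p = 0.00164), Rpl10a at -1.82 (SE 0.27, adjusted p = 5.54e-05) and Rps13 at -1.73 (SE 0.34, adjusted p = 0.0005). With near copies added, Rplp0 stayed at -2.41 (adjusted p = 4.5e-08), and Rpl10 was at -1.22 (adjusted p = 5.61e-06), Rpl27 at -1.40 (adjusted p = 4.45e-06), Rpl10a at -1.35 (adjusted p = 2.94e-06) and Rps13 at -1.21 (adjusted p = 2.44e-05). Rpl10 was then less negative than Rpl7 (-1.53) and Rpl22 (-1.41). Rpl10, among the last proteins to join the maturing large subunit, had 178, 88.2, 170.4 and 75.4 CPM at E17.5 and 41.2, 26, 38.9 and 18.6 CPM at A18w. Its adult libraries were all below its E17.5 libraries, which again split by replicate number. Of the members with the highest mean CPM over the cortex libraries, Rpsa differed by -1.20 (SE 0.12, adjusted p = 1.18e-06), Rpl4 by -0.80 (SE 0.13, adjusted p = 8.78e-05), Rpl13a by -0.73 (SE 0.19, adjusted p = 0.00466) and Rpl3, which lies at the peptidyl transferase centre, by -0.33 (SE 0.13, adjusted p = 0.0376). The call for Rpl3 was lost without E17.5_WT or E17.5_Mcph1KO replicate 1, P4_WT replicate 2, either A18w_WT replicate or A18w_Mcph1KO replicate 2, and also with RLE size factors (edgeR adjusted p = 0.0535) and with all 18 libraries in the fit (adjusted p = 0.0848). Without both E17.5 libraries numbered 1 the member median was -0.71, and with library totals as the only scaling it was -1.29, where the median of all genes tested moved to -0.30.

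The members with a low share of such stretches over the whole transcript gave similar values. Of the 20 members with at most 50% shared stretches that were tested in the cortex, 10 were lower at P4 than at E17.5, 14 at A6w than at P4 and 16 at A18w than at E17.5, with medians of -0.49, -0.65 and -0.99. Rps3, a small-subunit protein at the mRNA entry, had 574, 475, 572 and 379 CPM at E17.5 and 278, 263, 307 and 220.4 CPM at A18w (-0.90, SE 0.16, adjusted p = 0.0003), and Rps20 and Rpl8 differed by -1.04 (SE 0.12, adjusted p = 6.58e-06) and -0.96 (SE 0.18, adjusted p = 0.000327). Each of the 4 adult values of Rps3 was below each of its E17.5 values.

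The members at the other end of the range ended near their E17.5 level. Rpl22l1 differed by 0.14 (SE 0.16, adjusted p = 0.467, 95% interval -0.21 to 0.50), Rps21 by 0.10 (SE 0.47, adjusted p = 0.875, 95% interval -0.93 to 1.12), Rps29 by 0.04 (SE 0.53, adjusted p = 0.961, 95% interval -1.11 to 1.18), Rpl38 by -0.09 (SE 0.36, adjusted p = 0.849, 95% interval -0.88 to 0.70) and Rplp1 by -0.13 (SE 0.14, adjusted p = 0.451, 95% interval -0.43 to 0.18). The interval of Rps29 reached the member median of -1.04 and those of the other 4 did not. Rps29 had 116, 123, 139 and 102 CPM at E17.5 and 185, 70.0, 184 and 54 CPM at A18w. Both A18w libraries numbered 1 were above and both numbered 2 below every E17.5 value.

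Rpl22l1 belongs to a paralog pair, and in 2 pairs the variant held a larger share in every adult library than in any E17.5 or P4 library. Rpl22 binds RNA in the large subunit and Rpl22l1 is its close relative. Rpl22 had 292, 242, 286 and 179 CPM at E17.5, 182, 171, 241 and 177 at P4, 82.8, 79.6, 91.3 and 74.7 at A6w and 100.7, 85.6, 106 and 82.2 at A18w, and fell by 1.41 on the log2 scale (SE 0.16, adjusted p = 5.44e-06). Rpl22l1 had 46.4, 39.8, 47.5 and 38.7 CPM at E17.5 and 44.5, 53, 52 and 41 CPM at A18w. The share of Rpl22l1 in the counts of the pair was 13.7% to 17.8% at E17.5, 13.2% to 24.9% at P4, 30.4% to 36.8% at A6w and 30.6% to 38.2% at A18w, and 13.2% to 16.6% in stem cells. All 8 adult libraries were above all E17.5 and P4 libraries. These shares are of counts, not corrected for transcript length.

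The second pair is Rpl7, a large-subunit protein, and its relative Rpl7l1. Rpl7 had 542 to 711 CPM at E17.5 and 191 to 244 CPM at A18w (-1.53, SE 0.13, adjusted p = 2.49e-07) and Rpl7l1 had 58.2 to 86.3 and 40.2 to 47.1 CPM (-0.76, SE 0.14, adjusted p = 0.00033), so the share of Rpl7l1 was 9.03% to 10.8% at E17.5 and 14.5% to 17.4% at A18w. In the third measured pair Rps27l, a p53-responsive relative of Rps27, had 20.5 to 34.8 CPM at E17.5 and 6.79 to 11.2 CPM at A18w (-1.62, SE 0.24, adjusted p = 4.26e-05), and Rps27 had 6.74 to 10.2 and 2.66 to 9.51 CPM (-0.37, SE 0.36, adjusted p = 0.387). Rps27l held 66.9% to 81.5% of the pair's counts at E17.5 and 51.9% to 71.8% at A18w, ranges that overlap. This share leaves out Rps27rt, a copy that holds 98.7% of the 31-base stretches of Rps27. Rps27rt had 202, 161, 212 and 131 CPM at E17.5 and 114, 78.2, 122 and 58.5 CPM at A18w, far above Rps27. With near copies added, Rps27 differed by -0.89 (edgeR adjusted p = 0.0667). The share of Rps27l therefore depends on which copies are counted. Rpl36al, which is outside the symbol rule, held 36.9% to 54.9% of its pair with Rpl36a at E17.5 and 51.5% to 57.5% at A18w. The symbol Rps4l fits the rule, but GENCODE M21 does not list that gene as protein-coding, so it is not a member. Rps4l held 4.16% to 8.49% of its pair with Rps4x at E17.5 and 4.25% to 12.4% at A18w. Rpl36a differed by -1.24 (SE 0.31, adjusted p = 0.00355) and Rps4x by -1.33 (SE 0.15, adjusted p = 5.38e-06).

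**Figure D3:**
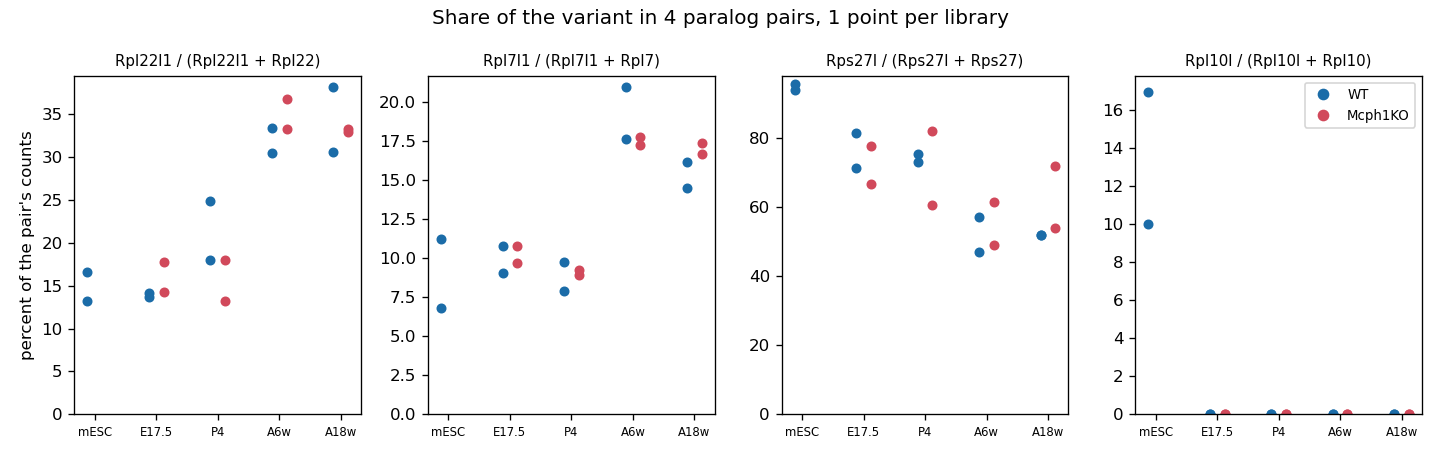
Percent of each pair's counts that came from the variant gene, 1 point per library, by stage (horizontal axis) and genotype (colour), for Rpl22l1, Rpl7l1, Rps27l and Rpl10l. For Rpl22l1 and Rpl7l1 all adult libraries lie above the E17.5 and P4 libraries, the Rps27l ranges overlap, and Rpl10l is at 0.0165% or less in cortex.

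The other 3 members were left out of the cortex test by the filter on low counts. Rpl10l and Rpl39l, relatives of the X-linked Rpl10 and Rpl39 that are known from male germ cells, had 1 and 10 counts in all 16 cortex libraries together. Rpl3l, a striated-muscle relative of Rpl3, had 56, with at most 8 in a library. A count of 0 in a group of 2 libraries allows up to 3 counts, or 0.0464 to 0.0665 CPM over the groups.

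Stem cells carried more ribosomal protein mRNA than E17.5 WT cortex in nearly every member. By edgeR's quasi-likelihood test on the wild-type libraries, 77 of 83 members were higher and 2 lower in mESC_WT (32.7% and 35.3% of the 19466 genes tested), with a median log2 difference of 1.66, or 3.16-fold, against -0.06 over all genes tested. Cell type, culture and the strain of the R1 line cannot be told apart in this comparison. Rpl4 had 2819.6 and 3565 CPM in the stem cell libraries and 861 and 749 in E17.5_WT (1.99, SE 0.21, adjusted p = 1.4e-05). Rpsa differed by 1.67 (SE 0.22, adjusted p = 6.77e-05), Rplp0 by 1.08 (SE 0.21, adjusted p = 0.00104) and Rpl13a by 1.25 (SE 0.23, adjusted p = 0.000741); with near copies added Rplp0 was at 1.69 (adjusted p = 4.45e-05). Of the members with at most 50% shared stretches, Rps20 and Rpl8 differed by 2.04 (SE 0.21, adjusted p = 1.06e-05) and 1.86 (SE 0.25, adjusted p = 8.17e-05). In all of these genes both stem cell libraries were above both cortex libraries. Each of the 23 members with at most 50% shared stretches was higher, with a median of 1.92. Rpl10l, Rpl39l and Rpl3l are among these 23 and among the 77. They passed the filter on low counts only through the stem cell libraries, so their direction was fixed by the filter. The other 20 of the 23 also passed the filter in the cortex. With library totals as the only scaling the median over all members was 1.35.

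Of the paralogs among the members, Rpl10l, Rpl39l, Rpl3l and Rps27l were far higher in stem cells, while Rpl22l1 was below the member median. Rpl10l had 2291 counts in the 2 stem cell libraries and 1 in the 2 E17.5_WT libraries, a CPM ratio of 3137 (95% counting interval 562 to 123947), and took 10.004% to 16.9% of the counts of its pair with Rpl10 in stem cells. Rpl39l had 866 and 3 counts, a ratio of 395 (135 to 1920), and Rpl3l 67 and 3 counts, a ratio of 30.6 (10.02 to 152); these intervals cover counting error only. Rps27l had 254 and 414 CPM in stem cells and 28.7 and 23.8 in E17.5_WT, a log2 difference of 3.67 (SE 0.34, adjusted p = 4.88e-06). By the same edgeR test Rps4l and Rpl36al, which are not members, differed by 3.86 (SE 0.37, adjusted p = 7.11e-06) and 2.32 (SE 0.24, adjusted p = 1.08e-05). Rpl7 and Rpl7l1 rose together, by 2.37 (SE 0.28, adjusted p = 3.05e-05) and 2.11 (SE 0.20, adjusted p = 5.74e-06), as did Rpl22 (1.39, SE 0.22, adjusted p = 0.000265) and Rpl22l1 (1.54, SE 0.31, adjusted p = 0.00119). Rpl10 differed by 1.43 (SE 0.43, adjusted p = 0.0123), Rpl39 by 2.02 (SE 0.57, adjusted p = 0.00899), Rps27 by 1.27 (SE 0.40, adjusted p = 0.016), Rps4x by 1.66 (SE 0.27, adjusted p = 0.000271) and Rpl36a by 1.35 (SE 0.40, adjusted p = 0.0119).

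The 2 members called lower in stem cells each had a near-identical pseudogene with high counts there. Rps13, a small-subunit protein at the subunit interface, had 24.2 and 23.8 CPM in stem cells and 207 and 83.3 in E17.5_WT (-2.60, SE 0.38, adjusted p = 0.000152). Its processed pseudogene Rps13-ps1, which differs from it at 2 of 453 coding bases, had 651 and 649.6 CPM in stem cells and 0 and 0.0681 CPM in E17.5_WT. Rps3a1 had 199 and 189 CPM in stem cells and 558 and 452 in E17.5_WT (-1.38, SE 0.19, adjusted p = 0.000105), while the copy Rps3a2 shown above had 1017 and 1702 CPM in stem cells and 0.0284 and 0.034 in E17.5_WT. With near copies added, Rps13 had 675 and 674 CPM in stem cells and 260.4 and 209.6 in E17.5_WT, and Rps3a1 had 1726 and 2925 CPM in stem cells and 558 and 453 in E17.5_WT. Both differences then turned positive, to 1.52 (adjusted p = 4.51e-05) and 2.20 (adjusted p = 3.24e-05), and no member was lower. Rpl3 (-0.40, SE 0.20, adjusted p = 0.0978) became 2.14 (adjusted p = 5.08e-06), with Rpl3-ps1 at 1760.2 and 2486 CPM in stem cells and listed at 0 in both E17.5_WT libraries. Rpl29 and Rpl34, at -0.03 (SE 0.21, adjusted p = 0.92) and 0.09 (SE 0.29, adjusted p = 0.805) alone, were 1.11 (adjusted p = 0.000788) and 1.60 (adjusted p = 0.000199) with their copies. All near copies together held 1.42% and 2.07% of counts in the stem cell libraries and 0.124% to 0.406% in the cortex libraries, and how the reads were divided was not tested.

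**Figure D4:**
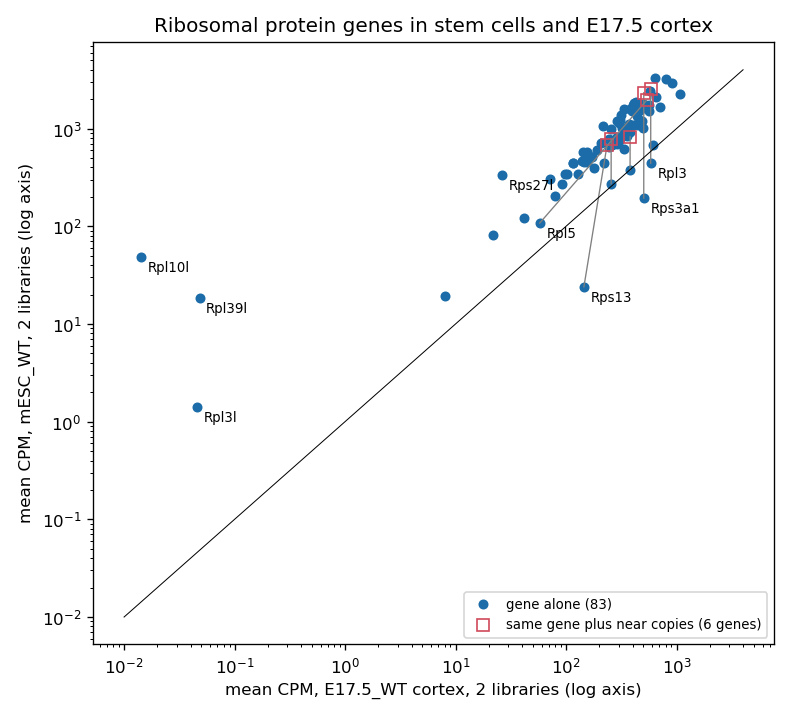
Mean CPM of each of the 83 members in 2 E17.5_WT libraries (horizontal, log axis) and 2 mESC_WT libraries (vertical, log axis), with the line of equal level; red squares show 6 members after their near copies were added. Rps13 and Rps3a1 lie below the line alone and above it with their copies, and Rpl10l, Rpl39l and Rpl3l lie at the far left.

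No ribosomal protein gene passed the test between genotypes. edgeR's quasi-likelihood test called 0 of 80 members at E17.5, P4, A6w or A18w, or with stages averaged, and none had an unadjusted p under 0.05; DESeq2 also called none. With the replicate numbers as a block, edgeR again called no member, but 10 members had an unadjusted p under 0.05 at P4 (smallest adjusted p = 0.287) and 2 at A6w (smallest adjusted p = 0.697). The share of all genes under that unadjusted p in the blocked fit is not given here. Whether these 10 and 2 members stand out from all genes was therefore not tested. Over all 19199 genes the blocked fit called 7 at E17.5, 5 at P4, 4 at A6w, 4 at A18w and 16 with stages averaged. Without the block, 0% of all genes were called at each of the 4 stages and 0.0521% with stages averaged (0.0417% higher and 0.0104% lower). The groups did not overlap in 1 member higher and 2 lower at E17.5 (9.83% and 10.3% of all genes tested), 18 higher and 0 lower at P4 (15% and 14.6%), 14 higher and 0 lower at A6w (16.7% and 15.4%), and 0 at A18w (10.4% and 12.4%). The test of a genotype difference that depends on stage called 0 members and 0% of genes. Median log2 differences (Mcph1KO minus WT) were -0.10 at E17.5, 0.19 at P4, 0.15 at A6w, -0.04 at A18w and 0.05 over stages, against -0.01 to 0.00 over all genes tested at each stage. The signs were shared widely, with 75 of 80 members below 0 at E17.5, 65 above 0 at P4, 68 above 0 at A6w and 61 below 0 at A18w. Of all genes tested, 48.6%, 50.6%, 50.1% and 47.7% were above 0 at these stages. Members also shared signs between replicates of a group, as given below, so they are not independent counts. The medians moved with single libraries: the E17.5 median was -0.41 without E17.5_Mcph1KO replicate 1 and 0.16 without replicate 2, the A6w median was -0.10 without A6w_Mcph1KO replicate 1, and the A18w median was -0.35 without A18w_Mcph1KO replicate 1. With stages averaged, the 95% intervals of the 80 members lay within -0.68 to 0.94, which is the precision of the comparison without the block.

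The most positive genotype differences of any stage were at P4. Rps28 had 71.1, 13.7, 109 and 42.2 CPM at P4, a difference of 0.84 (SE 0.68, adjusted p = 1, 95% interval -0.64 to 2.31), and Rpl38 85.9, 28.7, 147 and 65 CPM (0.89, SE 0.52, adjusted p = 1). Rpl36a differed by 0.91 (SE 0.44, adjusted p = 1), Rpl37 by 0.90 (SE 0.49, adjusted p = 1) and Rpl36 by 0.73 (SE 0.41, adjusted p = 1). In Rps28, Rpl38, Rpl37 and Rpl36 the lowest value was that of P4_WT replicate 2 and the groups overlapped; in Rpl36a they did not. At the other end Rpl22l1 had 60.3, 37.5, 36.6 and 38.9 CPM (-0.37, SE 0.23, adjusted p = 1). A fit with no filter on low counts called Rpl37, Rpl38, Rpl36, Rps28 and Rpl36a higher at P4, the only alternative that called any member between genotypes. Of all 33930 genes in that fit, 107 were called higher and 118 lower at P4, against 0 and 0 as reported. Its prior degrees of freedom were infinite, so no gene kept a spread of its own in the test. The most negative and most positive values were those of Rps2 (-0.30, SE 0.23, adjusted p = 1) and Rps27 (0.28, SE 0.51, adjusted p = 1) at E17.5, Rpl36a (-0.23, SE 0.44, adjusted p = 1) and Rpl17 (0.39, SE 0.23, adjusted p = 1) at A6w, Rps27 (-0.42, SE 0.52, adjusted p = 1) and Rpl12 (0.32, SE 0.36, adjusted p = 1) at A18w, and Rps3a1 (-0.08, SE 0.11, adjusted p = 1) and Rpl38 (0.22, SE 0.26, adjusted p = 1) over stages.

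In 6 of 8 groups the median difference between the 2 replicates was larger in size than the median genotype difference at any stage. Median log2 differences between replicates 1 and 2 over the 80 members were 0.25 in E17.5_WT, 0.55 in E17.5_Mcph1KO, 0.34 in P4_WT, 0.37 in P4_Mcph1KO, -0.13 in A6w_WT, 0.46 in A6w_Mcph1KO, 0.09 in A18w_WT and 0.54 in A18w_Mcph1KO, where the same medians over all genes tested were -0.01 to 0.03. The libraries numbered 1 were higher in 7 of 8 groups. In A18w_Mcph1KO all 80 members were higher in replicate 1. The 19 members of at most 500 bases had a larger median in size than the 18 of at least 1000 bases, in the same direction, in all 8 groups (0.68 against 0.41 in A18w_Mcph1KO and 0.55 against 0.18 in P4_WT). What set the replicates apart was not tested.

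**Figure D5:**
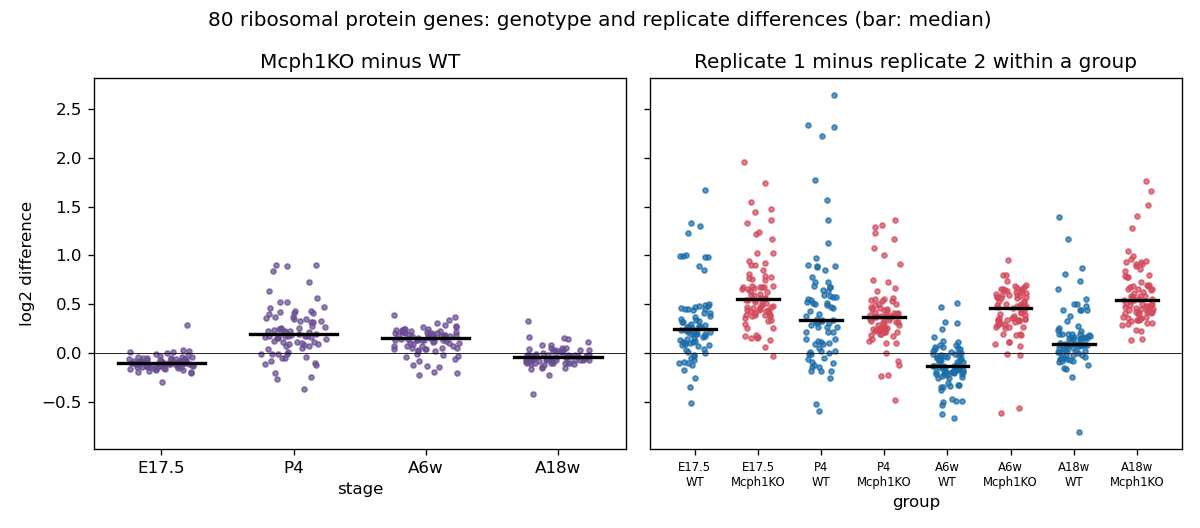
Log2 differences of the 80 members, 1 point per gene, between genotypes at each stage (left) and between replicates 1 and 2 of each cortex group (right), with the median as a bar. Genotype medians lie between -0.10 and 0.19, and replicate medians between -0.13 and 0.55.

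Members whose human forms are mutated in Diamond-Blackfan anaemia, an inherited failure of red cell production, were described by counts: 14 of 18 fell between E17.5 and A18w (median -1.05; 33.4% of all genes tested were lower), 17 of 18 were higher in stem cells (median 1.58; 32.7% of all genes were higher), and none was called between genotypes with stages averaged (0.0521% of all genes). Over all members the counts were 69 of 80 and 77 of 83. Rps19, the gene first linked to the disease, had 329, 274, 339.9 and 215 CPM at E17.5 and 129, 113, 153 and 94.2 CPM at A18w (-1.25, SE 0.22, adjusted p = 0.000206). Rpl11, which with Rpl5 binds MDM2, differed by -1.06 (SE 0.21, adjusted p = 0.000658).

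Other genes of the translation apparatus gave these counts, with 33.4% of all genes lower and 32% higher at A18w than at E17.5. Of 23 other genes with TOP mRNAs, 20 were lower and none higher (median -1.10), among them Rack1, the scaffold protein of the small subunit, at -1.85 (adjusted p = 1.26e-08), and the elongation factor Eef1a1 at -1.49 (adjusted p = 2.39e-07). Of 49 ribosome biogenesis factors 38 were lower and 3 higher (median -0.54); the nucleolar helicase Ddx21 was at -1.95 (adjusted p = 6.28e-08) and the nucleolar chaperone Npm1 at -1.68 (adjusted p = 4.75e-07), while Sbds, which helps free Eif6 from new large subunits, was at 1.28 (adjusted p = 2.28e-06). Of 14 genes in a list of RNA polymerase I and its factors, with Myc and Mycn listed beside them, 13 were lower (median -0.84). Mycn was at -3.61 (adjusted p = 8.51e-09) and Myc at -2.78 (adjusted p = 2.78e-08). Both are transcription factors that drive ribosome production and are not parts of RNA polymerase I. Initiation factors were lower in 23 of 36 and higher in 4, and elongation and termination factors lower in 9 of 14 and higher in 3, with the adult-neuron form Eef1a2 at 3.39 (adjusted p = 4.49e-09). The mTOR pathway list had 5 higher and 7 lower of 21 (median -0.10).

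Mitochondrial ribosomal protein genes gave other counts than the cytosolic ones, a difference that was not tested: 15 of 78 were higher and 10 lower at A18w (median 0.07), with Mrpl48 at 1.22 (adjusted p = 9.8e-08) and Mrps5 at -0.70 (adjusted p = 3.07e-05). Nuclear genes of oxidative phosphorylation were higher in 59 of 77 and lower in 1 (median 0.71), with Ndufs7 at 1.32 (adjusted p = 8.83e-07). In stem cells against E17.5_WT, where 32.7% of all genes were higher, 48 of 49 biogenesis factors were higher (median 2.52), with nucleolin, Ncl, at 3.49 (adjusted p = 4.43e-07), as were 65 of 78 mitochondrial ribosomal protein genes (median 1.31) and 61 of 77 oxidative phosphorylation genes (median 1.02). Between genotypes with stages averaged, no gene of any of these lists was called.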

How the data were processed

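RNA-seq libraries of R1 stem cells and mouse cerebral cortex, 2 in each of 9 groups, were compared. The values are estimated counts per gene, deposited as whole numbers; per the submitters' processing notes, reads were handled with FastQC, Trimmomatic 0.39 and Salmon 1.4.0 on GRCm38.p6 (mm10), with roles and settings not given in the sources used here. Per the labels' protocols, total RNA came from part of a tissue homogenate and libraries were made with a NEBNext Ultra RNA kit. Salmon divides reads shared by near-identical transcripts, so values of members with pseudogenes depend on that step. Library totals were 23531045 to 32041849 counts, and counting intervals (exact, 95%) cover counting error only.

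Genes were kept by edgeR's filterByExpr (minimum count 10, minimum total 15), scaled by TMM, and tested with edgeR 4.0.16 (quasi-likelihood, R 4.3.3), with 1 mean per group: 16 cortex libraries (19199 genes) for stage and genotype, and 10 wild-type libraries (19466 genes) for stem cells. P-values were Benjamini-Hochberg adjusted over all genes tested, and adjusted p under 0.05 was called. CPM are scaled by the same factors; standard errors are the log2 difference over the square root of F. The fit was tested on simulated data. Gene symbols, coding stretches and 31-base sharing came from GENCODE M21, promoters from RefSeq, by Python 3.11.15.

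Members and lists were chosen with earlier results of these data known. Named members were the 5 most positive and 5 most negative in a comparison (fewer between genotypes and for A18w minus A6w), the 5 of highest mean CPM, paralog pairs and those left out by the filter; up to 4 were named in other lists. Some members that this rule names are not reported here. Rps3, Rps20 and Rpl8 (low sharing, all comparisons), Rps19 and Rpl11 were also named after their values were seen. Replicate numbers come from the labels. Deviations from the group mean correlated between genotypes at 0.61, 0.24, 0.10 and 0.37 for E17.5, P4, A6w and A18w. The fits reported nevertheless had no replicate block, so their standard errors and intervals do not use a pairing. A fit with the replicate numbers as a block was an alternative, and it called no member between genotypes. Alternatives were 3 other scalings, DESeq2 1.42.0, no filter, all 18 libraries, a replicate block, libraries left out, single genotypes and other gene sums. Merging near copies (at least 25% of 31-base stretches; 393 copies) and keeping only members with at most 50% shared were chosen after seeing the data.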

Additional observations from a re-analysis of the deposited data

How the results depend on the processing

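Of 1930 values of named genes under alternatives, 1783 kept direction and side of the threshold, 53 lost a call, 20 gained one and 74 changed sign, 3 of these among genes called as reported. Where a value changed, the cause was not tested. Alternatives with fewer libraries or members show only that a value depends on those left out.

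For P4 minus E17.5, 0 members were higher with total counts only, with no filter, without both E17.5 libraries numbered 1, in WT only, with near copies merged and among members with at most 50% shared; 2 were lower without those 2 libraries, 23 in WT only, 2 in Mcph1KO only and 10 among members with at most 50% shared. Leaving out 1 library gave 0 to 1 higher and 12 to 56 lower. For A6w minus P4, 3 were higher with no filter, 2 with the replicate block and 0 to 2 without 1 library; 14 members with at most 50% shared were lower. For A18w minus A6w, DESeq2 and the fit with no filter each called 1 higher, where they called 136 of 19199 and 311 of 33930 genes higher. For A18w minus E17.5 the median was -1.29 with total counts only and -0.71 without both E17.5 libraries numbered 1, and 16 members with at most 50% shared were lower. For stem cells the median was 1.35 with total counts only and 1.41 to 1.79 without 1 library, and 0 were lower with near copies merged. Among members with at most 50% shared it was 1.92 (23 higher, 0 lower). These include Rpl10l, Rpl39l and Rpl3l, which passed the filter only through the stem cell libraries. The stem cell share of counts was 8.02% with pseudogenes added and 9.07% with near copies. Between genotypes, no filter called 5 members higher at P4 and 2 by stage. Without 1 library the genotype medians were -0.41 to 0.16 at E17.5, -0.10 to 0.36 at A6w and -0.35 to 0.20 at A18w.

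Sign changes were as follows. In stem cells, Rpl29 was 0.025 with RLE factors, 0.012 with upper-quartile factors and 0.025 with DESeq2, and Rpl34 was -0.20 with total counts only. For P4 minus E17.5, Rpl22l1 was 0.045 with upper-quartile factors and 0.12 without both E17.5 libraries numbered 1. Rpsa was -0.036 with total counts only, -0.014 with no filter, -0.00604 with all 18 libraries and -3.32e-05 without both A18w libraries numbered 1, and Rpl39 was -0.023 with the replicate block. For A6w minus P4, Rps27 was -0.011 with total counts only. For A18w minus E17.5, Rps29 was -0.00315 with upper-quartile factors, -0.24 with total counts only, -0.22 with the replicate block and -0.97 without both A18w libraries numbered 1. Rps21 was -0.16 with total counts only and -0.62 without those 2 libraries, Rpl22l1 was -0.12 with total counts only, and Rpl38 was 0.031 without both E17.5 libraries numbered 1. With near copies merged, Rps27 at E17.5 was -0.063, Rpl36a at A6w 0.082, Rpl12 at A18w -0.041 and Rps3a1 over stages 0.025 between genotypes. Rpl5 for P4 minus E17.5 was -0.57, Rps27 for A6w minus P4 -0.39 and Rpl10 for A18w minus A6w 0.22. In stem cells Rps13 was 1.52, Rps3a1 2.20, Rpl3 2.14 and Rpl29 1.11.

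Without 1 library, values that changed sign ran from -0.68 to 0.009998 (Rpl22l1) and -0.00601 to 2.47 (Rps28) between genotypes at P4, -0.58 to 0.16 (Rpl36a) at A6w, and -1.62 to 0.22 (Rps27) and -0.23 to 0.72 (Rpl12) at A18w. For P4 minus E17.5 they ran from -0.20 to 0.14 (Rpl22l1), -0.054 to 0.051 (Rpsa) and -0.69 to 0.42 (Rpl39). For A6w minus P4, Rps27 ran from -0.037 to 0.63, and for A18w minus A6w, Rpl10 from -0.39 to 0.14. For A18w minus E17.5 they ran from -0.49 to 0.16 (Rpl38), -0.54 to 0.35 (Rps29) and -0.39 to 0.38 (Rps21), and for stem cells from -0.17 to 0.089 (Rpl29) and -0.15 to 0.28 (Rpl34).

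The stage groups share only replicate numbers: deviations correlated between -0.08 and 0.31 across stages. Apart from the A6w minus P4 count above, the replicate block moved no count of called members by over 1.5 times. With total counts only, the median of all genes tested was -0.28 for A6w minus P4, -0.30 for A18w minus E17.5 and -0.36 for stem cells (4067 higher and 7138 lower for A6w minus P4, against 5244 and 5340 as reported, 5014 and 7859 at A18w, against 6148 and 6417, and 5323 and 7678 in stem cells, against 6367 and 6863). Leaving out both libraries numbered 1 was not run for stem cells, where it equals leaving out 1 library. With 2 libraries a group, genotype differences within a stage had 95% intervals from -1.72 to 2.31 over members. Rpl10l and Rpl39l are limited by counts near 0 in cortex.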
